A study of Sus scrofa with 2 samples.

Results

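The abundant Unigenes shorter than 5000 bases were described in ovaries of gilts, young female pigs, at 30 and 90 days after birth. A Unigene is a transcript sequence put together from sequencing reads and carried under a running number rather than a gene name. The set took every Unigene numbered above 12173 and shorter than 5000 bases whose mean over both libraries was at least 50 CPM, the count of reads scaled to the library total. It held 292 of the 84868 Unigenes of that number and length range, out of 88173 features in all. Mean CPM chose the members, and both libraries entered it, so their levels and age differences are given as a description without a test.

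The animals were Landrace x Yorkshire crossbred swine, 6 in all, kept in one environment on one diet. RNA of the ovaries of all animals of one age was pooled in equal amounts, and 1 library was sequenced from the 30-day pool and 1 from the 90-day pool. The libraries held 9376506 and 10706106 uniquely assigned reads. Neither age was replicated, so the spread between animals is not seen, and p-values between the ages could not be had. Because whole ovaries were pooled, fewer cells of a type and less RNA per cell cannot be told apart. The study asked how long non-coding RNAs change as the ovary develops.

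Long non-coding RNAs are transcripts without a long protein-coding frame, and many take part in the control of transcription, chromatin or RNA stability. In young gilts the ovary passes from a cortex filled with primordial and primary follicles to one with growing follicles, in which granulosa and theca cells multiply around the oocytes. Transcripts of all these cells are mixed in RNA of a whole ovary. An assembled catalogue can hold coding and non-coding RNAs, and several of its sequences can come from one gene. None of the 292 identifiers matched the gene tables used here (0 matches), so the coding status and the ovarian marker genes were not analysed here. Members are called by their length, and only the extremes by identifier.

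Between them the members took 5.48% of all reads at 30 days (exact 95% interval 5.4667 to 5.4958) and 4.86% at 90 days (4.8430 to 4.8688). This was 14.0% of the reads of all Unigenes numbered above 12173 at 30 days and 17.5% at 90 days. These intervals, and those of all ratios given here, cover counting error in these libraries only. A single member dominated the set. The Unigene of 4993 bases alone drew 167793 reads in the 30-day pool and 232743 in the 90-day pool, or 32.6% and 44.8% of the members' reads. Without it the other 291 members held 3.69% of all reads at 30 days and 2.68% at 90 days. The share of the set was thus lower at 90 days with and without this member. Against a library total that leaves out the 4 most abundant features of the catalogue, however, the members held 12.4% at 30 days and 15.8% at 90 days, so this order depended on the scaling. The 5 most abundant members together held 38.9% of the members' reads at 30 days and 50.8% at 90 days.

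Levels can be set against each other only per length, as RPKM, which divides the CPM by the length in kilobases. On that scale the 4993-base member was not alone at the top. It had 3584 RPKM at 30 days and 4354 at 90 days, and a Unigene of 271 bases had 3573 and 4892 RPKM. Both were somewhat higher in the 90-day pool, by 1.21-fold (1.207 to 1.222) and 1.37-fold (1.33 to 1.41). A Unigene of 275 bases had the highest value of all members at 30 days, 3843 RPKM, but 1316 RPKM at 90 days, a 2.92-fold higher level at 30 days (2.81 to 3.03). A Unigene of 207 bases followed with 2647 and 1627 RPKM. A wide gap separates these 4 from the rest. The fifth by mean RPKM, a Unigene of 202 bases and the shortest member, had 615 RPKM at 30 days and 600 at 90 days. By library total these did not differ beyond counting error (ratio 0.976, 0.901 to 1.06). A Unigene of 407 bases had 589 and 522 RPKM. The median member had 39.8 RPKM at 30 days and 25.1 at 90 days.

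By reads, without regard to length, the 5 most abundant members also included longer sequences. The Unigene of 4542 bases had 720 CPM at 30 days and 662 at 90 days. The Unigene of 1956 bases had 662 and 577 CPM. By library total both were slightly lower at 90 days, with ratios of 0.919 (0.889 to 0.950) and 0.871 (0.841 to 0.903). This direction depended on the scaling, as 5 other scalings gave log2 folds of 0.07 to 0.41 for the former and -0.0072 to 0.33 for the latter. Of the 5 members with a mean of at least 500 CPM, the 275-base Unigene alone passed a 2-fold difference, falling short of 4-fold.

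The age difference was taken as the log2 ratio of the 90-day to the 30-day CPM, each raised by a pseudocount of 1, which understates the change of low values. Members past 2-fold on this scale were counted as higher or lower, a rule of size and not a test. Of the 292 members, 26 (8.9%) were higher at 90 days, 102 (34.9%) were lower and 164 lay between. Among all 73973 features that reached 1 CPM in either library, the same rule called 14.6% higher and 36.6% lower. With a minimum of 5 CPM in either library it called 14.5% and 46.8% of 19540 features. The share of lower members was thus near that of the catalogue or below it, depending on the minimum, and nothing is read from this because the members were chosen on these libraries. The median log2 fold was -0.40 for the members and -0.49 for all features compared, with quartiles of -1.55 and 0.30 for the members.

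**Figure D1:**
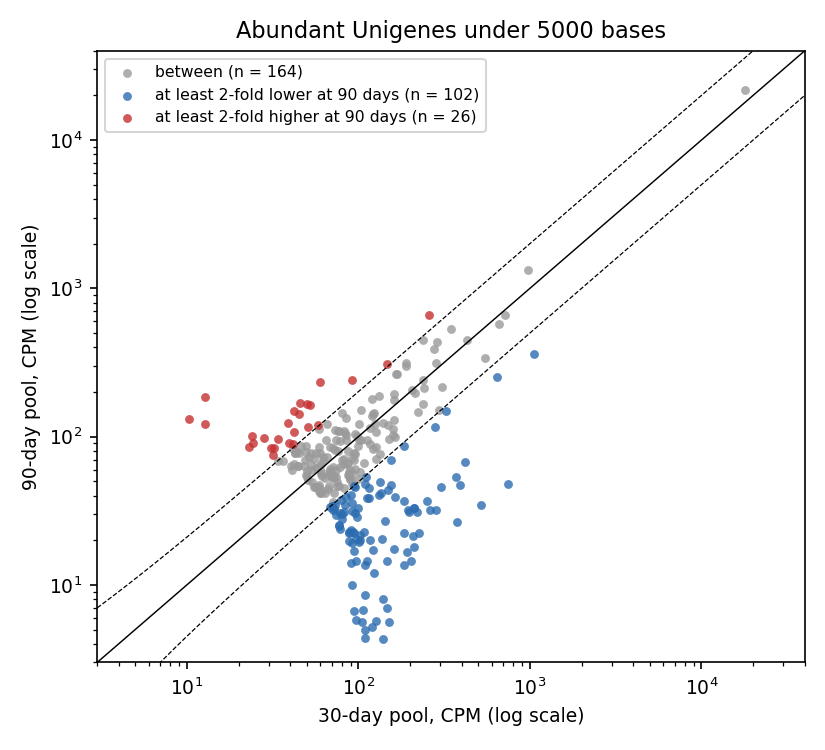
CPM of each of the 292 members in the 30-day pool (horizontal, log scale) and the 90-day pool (vertical, log scale), with 1 point per Unigene. The solid line marks equal CPM and the dashed lines the 2-fold rule with a pseudocount of 1. The 102 lower members reach down to 4.30 CPM at 90 days, the 26 higher members reach down to 10.24 CPM at 30 days, and the 4993-base member stands alone at the upper right.

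The lower members lay further from equality than the higher ones. At a 4-fold difference 58 members (19.9%) were lower and 4 (1.37%) higher, where all 73973 features compared gave 9.06% and 1.49%. Most of the features compared are low, with a median of 2.001 CPM over both libraries, and the pseudocount makes 4-fold harder to reach for such features. Unigenes shorter than 5000 bases at 20 to 50 CPM gave 18.4% lower and 2.13% higher, close to the members. At 8-fold 28 of the 292 members were lower and 3 higher. Of the 1268 Unigenes shorter than 5000 bases at 20 to 50 CPM, 119 were lower and 11 higher. All 73973 features compared gave 1.54% and 0.212%. The exact interval of the CPM ratio lay wholly beyond 2-fold for 91 lower and 23 higher members, 31.2% and 7.88% of the set, against 29.2% and 8.81% of all features. The interval included equal CPM for 20 members. The median lower member went from 111.9 CPM at 30 days to 29.1 at 90 days, and the median higher member from 40.4 to 121.3 CPM.

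The direction of the set as a whole depended on how the libraries were scaled. The 4 most abundant features of the catalogue, none of them a member, took 55.7% of the 30-day and 69.3% of the 90-day reads. Scalings other than the library total, 5 in all, raised every log2 ratio by 0.19 to 0.53. The largest of these shifts came from a total without these 4 features. The median log2 fold of the members was then 0.12, with 64 higher and 76 lower, while the same scaling called 30.5% of all features higher and 32.7% lower. With TMM factors it was -0.02, with 47 higher and 80 lower, against 21.3% and 30% of all features. Lower members made up 79.7% of those past 2-fold with the library total and 54.3% to 70.2% with the other scalings. Over all features compared, the library total called 14.6% higher and 36.6% lower. The other scalings called 18.2% to 30.5% higher and 29.0% to 33.6% lower, so lower calls were the more frequent there too. Of the 102 lower calls, 76 to 87 were kept under these scalings. All 26 higher calls were kept under each of them, which was fixed in advance because each raised every log2 ratio.

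The strongest difference towards 90 days was that of Unigene62755_All, a sequence of 2465 bases. Its reads numbered 120 in the 30-day and 1977 in the 90-day pool, or 12.8 and 184.7 CPM, a 14.4-fold higher level (12.0 to 17.5). Unigene69351_All, of 949 bases, had 96 and 1399 reads, or 10.24 and 130.7 CPM, and was 12.8-fold higher (10.4 to 15.9). Both were read over nearly their whole length even in the 30-day pool, where 93.4% and 99.6% of the bases were covered. A Unigene of 2096 bases came next with 12.7 CPM at 30 days and 122.3 at 90 days, 9.63-fold higher (7.98 to 11.7). Beyond these 3 the differences were smaller. A Unigene of 4298 bases had 24.1 and 101.7 CPM, 4.22-fold higher, and one of 3242 bases had 59.6 and 234.0 CPM, 3.92-fold higher.

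In the opposite direction Unigene52036_All, of 3559 bases, had 1310 reads in the 30-day pool and 46 in the 90-day pool. This was 139.7 and 4.30 CPM, a 32.5-fold higher level at 30 days (24.2 to 44.6). Unigene12741_All, of 2903 bases, had 1405 and 60 reads, or 149.8 and 5.60 CPM, and was 26.7-fold higher at 30 days (20.6 to 35.2). In the 90-day pool only 52.7% and 49.4% of their bases were covered by reads, against 98.7% and 99.97% in the 30-day pool. A Unigene of 1041 bases had 110.0 CPM at 30 days and 4.39 at 90 days, 25.0-fold higher at 30 days. The next were 23.0-fold for a Unigene of 688 bases (120.3 and 5.23 CPM) and 22.1-fold for one of 719 bases (126.1 and 5.70 CPM). All members, these included, had reads in both libraries, with 46 as the lowest number, so none of them was confined to one age.

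The signed age difference had little correlation with length or abundance within the set. Spearman's rho with the log2 fold across the 292 members, which share both libraries, was 0.06 for length and 0.08 for mean CPM. The rule cut the set on both measures, and mean CPM is formed from the same values as the fold. No conclusion is therefore drawn from these correlations. Among the 46 members shorter than 1000 bases 6 were higher and 20 lower. Among the 60 from 1000 to under 2000 bases the counts were 6 and 23, and among the 64 from 2000 to under 3000 bases 6 and 25. The 64 members from 3000 to under 4000 bases gave 4 higher and 17 lower, and the 58 of at least 4000 bases gave the same counts. From the shortest to the longest class the share lower was 43.5%, 38.3%, 39.1%, 26.6% and 29.3%. The share between was 43.5%, 51.7%, 51.6%, 67.2% and 63.8%. In these counts members from 3000 bases passed 2-fold less often than shorter ones, which was not tested. Unigenes of at least 5000 bases at the same mean CPM gave 4.97% higher and 21.5% lower, so this was not particular to the members. All features compared gave 14.6% higher and 36.6% lower, a share not given here by class of length or abundance. By abundance, 19 of the 205 members with a mean of 50 to 100 CPM were higher and 72 lower, against 5 and 21 of the 54 at 100 to 200 CPM, and 2 and 8 of the 28 at 200 to 500 CPM.

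The members were also set beside Unigenes of like abundance or like length. Of the 181 Unigenes of at least 5000 bases with the same mean CPM, 4.97% were higher and 21.5% lower (median log2 fold -0.27). Of the 1268 Unigenes shorter than 5000 bases at 20 to 50 CPM, 7.73% were higher and 36.4% lower (median -0.55). The short abundant Unigenes therefore gave values close to those of the less abundant short ones and a larger share past 2-fold than the long ones, a difference that could not be tested with 1 library per age.

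The running numbers of the catalogue split into a range of smaller and a range of larger numbers, at a boundary drawn in earlier work from the age differences of these same files. Of the members, 119 lay in the former and 173 in the latter. Among those with smaller numbers 17 were higher and 30 lower at 90 days (median log2 fold -0.23). Among those with larger numbers 9 were higher and 72 lower (median -0.64). The catalogue as a whole went the other way: of its Unigenes from 1 CPM, 1.01% were higher and 63.8% lower in the range of smaller numbers, and 30.7% and 5.17% in the range of larger numbers. Because the boundary was drawn from these same age differences, the shares describe the split, and no conclusion about the numbers is drawn from them. All 4 members that were at least 4-fold higher were among the 119 with smaller numbers. Of the 58 that were at least 4-fold lower, 42 were among the 173 with larger numbers and 16 among the 119. At 4-fold all features compared gave 1.49% higher and 9.06% lower, a share not given here by range, so nothing is read from these counts.

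Members with neighbouring running numbers had alike age differences. Taking members whose numbers lay at most 5 apart gave 22 groups with 54 members, 16 of them pairs and the largest of 5. In 20 of the 22 groups the log2 folds lay within 1 of each other, and in 19 all members had the same sign. The median spread within a group was 0.41, where the SD over all members was 1.52. In 13 groups, with 36 members, every member was at least 2-fold lower at 90 days, in 2 groups every member was higher, in 4 all lay between, and in 3 the calls were mixed. With the other scalings 9 to 11 groups were wholly lower, 2 wholly higher, and 20 groups had a spread below 1. These scalings raised all log2 ratios nearly alike, so higher groups had to stay and spreads could hardly change. Grouped members were lower in 72.2% of cases (39 of 54) and members outside groups in 26.5% (63 of 238), against 36.6% of all features compared. Members of a group are not independent cases, and 36 of the 39 came from the 13 wholly lower groups. Larger numbers held 16 of the 22 groups, and 41.6% of all members there were lower, against 25.2% with smaller numbers. Whether grouped members are more often lower was not tested.

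**Figure D2:**
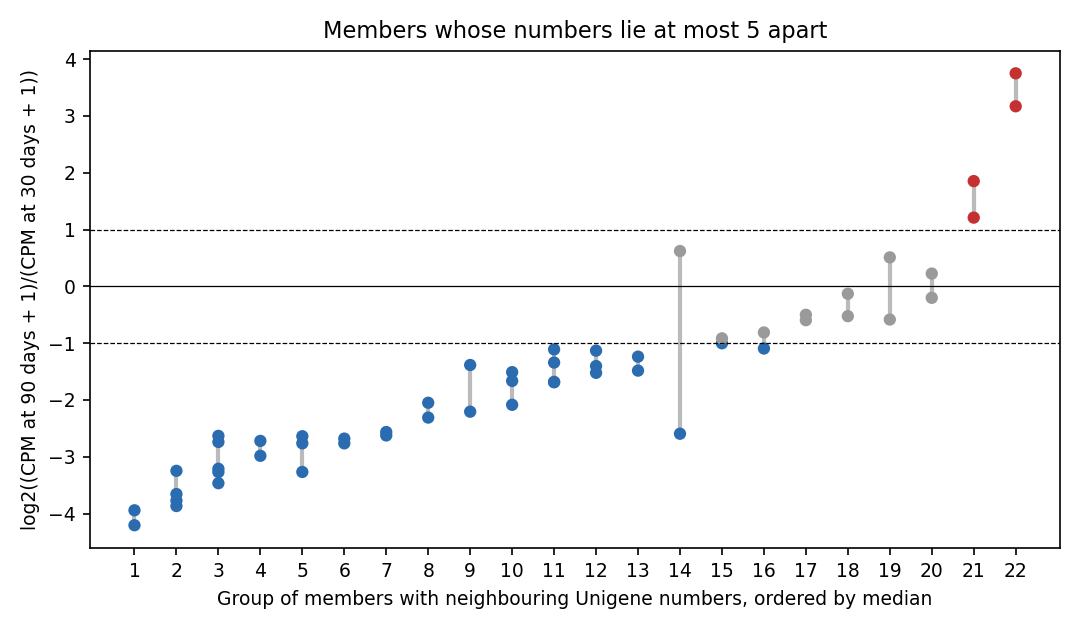
Log2 fold with a pseudocount of 1 CPM (90 days over 30 days, vertical) of the 54 members in groups of neighbouring running numbers, with the 22 groups ordered by their median. Each point is a Unigene, blue where at least 2-fold lower at 90 days, red where higher and grey between; grey bars join the lowest and highest member, and dashed lines mark 2-fold. Apart from 1 group with a spread of 3.22 and 1 with 1.09, all spreads are below 1.

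The largest group held 5 members within 8 consecutive numbers, of 2141, 525, 3264, 919 and 1124 bases. They had between 123.9 and 249.6 CPM at 30 days and between 12.0 and 36.5 CPM at 90 days. Their log2 folds lay between -3.47 and -2.63. A group of 4 consecutive numbers, of 3568, 995, 487 and 2015 bases, had 373.7, 146.0, 183.5 and 516.6 CPM at 30 days and 26.4, 14.5, 13.6 and 34.5 CPM at 90 days. Within it the log2 folds were between -3.87 and -3.25, although per length the members differed more, from 104.7 to 376.9 RPKM at 30 days. The CPM at 30 days was thus 6.37-fold to 11.6-fold higher in the group of 5 and 10.1-fold to 15.0-fold higher in this group of 4.

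A pair with consecutive numbers was lower still. Its member of 2362 bases had 748 CPM at 30 days and 47.7 at 90 days, and its member of 1497 bases had 108.8 and 4.95 CPM. Their log2 folds were -3.94 and -4.21, while their 30-day levels per length were 316.7 and 72.7 RPKM. A group of 4 with milder differences held members of 654, 3449, 2649 and 776 bases, with 154.3, 644.7, 322.2 and 135.2 CPM at 30 days and 47.2, 253.9, 148.8 and 41.5 CPM at 90 days. Each was lower, with log2 folds between -1.69 and -1.11.

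The groups that were higher at 90 days were both pairs. Unigene62755_All and the 2096-base Unigene, which had the largest fold and the largest but 2, had numbers 3 apart, with 12.8 and 12.7 CPM at 30 days. The other pair, of 2900 and 2985 bases with consecutive numbers, had 22.9 and 31.9 CPM at 30 days and 85.5 and 75.1 CPM at 90 days. The signs were opposite in 3 pairs. In the widest of them the members, of 2799 and 2610 bases, had 90.2 and 42.0 CPM at 30 days and 14.1 and 65.2 CPM at 90 days, with log2 folds of -2.59 and 0.62. In the others the log2 folds were -0.58 and 0.51, and -0.20 and 0.23, so no member of these passed 2-fold.

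The likeness faded with distance along the numbers. For the 13 pairs of members with consecutive numbers the median absolute difference of log2 folds was 0.35, and all 13 differed by less than 1. For the 31 pairs at a distance of 2 to 5 it was 0.39, with 29 below 1, and for the 45 pairs at 6 to 20 it was 0.37, with 39 below 1. At 21 to 100 the median was 0.69 over 56 pairs, and at 101 to 1000 it was 1.39 over 627 pairs, of which 36.0% differed by less than 1. Pairs at 1001 to 10000 and at larger distances gave 1.40 and 1.32. Levels behaved in the same way, with a median absolute difference of log2 mean RPKM of 0.50 at a distance of 1 and 1.27 at 101 to 1000. Pairs share members and are not independent.

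**Figure D3:**
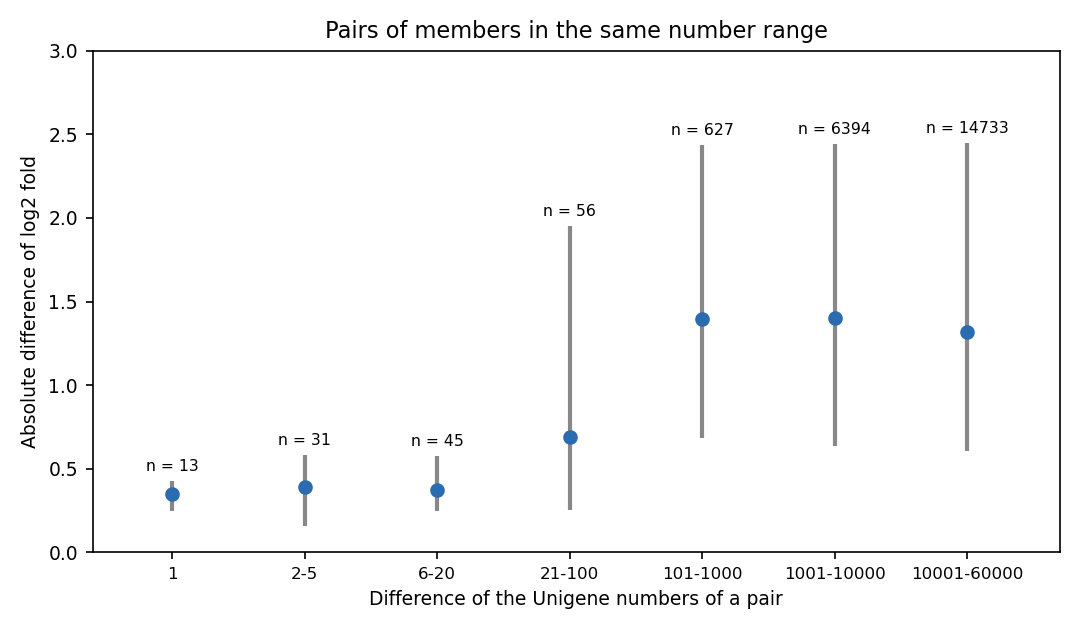
Absolute difference of log2 fold (vertical) between 2 members in the same number range, by the difference of their running numbers (horizontal). Points are medians, bars run from the lower to the upper quartile, and n is the number of pairs. Medians are between 0.35 and 0.39 up to a distance of 20, 0.69 at 21 to 100 and 1.32 to 1.40 beyond.

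Unigenes outside the set were also alike to a member next to them, most clearly where they were abundant themselves. With a mean of at least 10 CPM asked of the neighbour, 88 members had such a Unigene at a distance of 1. Pearson's r between the log2 folds of member and neighbour was 0.87 and Spearman's rho 0.86. At a distance of 2 to 5, where the median over the neighbours was taken, r was 0.67 over 147 members, at 6 to 20 it was 0.40 over 200 members, and at 21 to 100 it was 0.05 over 287. The 43 lower members had neighbours at a distance of 1 with a median log2 fold of -1.62, and the 7 higher members had neighbours with 1.43. With neighbours of any abundance from 1 CPM in 1 library, r was smaller. It was 0.41 over 258 members at a distance of 1, 0.28 at 2 to 5, 0.09 at 6 to 20 and -0.14 at 21 to 100. Beyond 100 both series lay between -0.23 and -0.17. All these r pool the ranges of smaller and larger numbers, whose Unigenes as a whole differed in opposite directions. Within 5 numbers and at any abundance, r was 0.31 when pooled, 0.52 with smaller numbers and 0.42 with larger numbers. The smaller pooled r are therefore not read as weaker likeness. Among the lower members with larger numbers, 28 of 72 had neighbours of any abundance within 5 numbers with a median log2 fold of -1 or less. Members between had such neighbours in 2 of 92 cases in that range, and higher members in 1 of 9. With smaller numbers the counts were 24 of 30 lower members, 35 of 72 between and 6 of 17 higher. In that range 63.8% of all Unigenes from 1 CPM were lower, against 5.17% in the range of larger numbers. These values are a description across features that share both libraries.

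Nor was the likeness particular to the members. For consecutive numbers the median absolute difference was 0.35 over 125 pairs of Unigenes shorter than 5000 bases at 20 to 50 CPM, 0.40 over 287 pairs at 10 to 20 CPM, and 0.19 over 8 pairs of Unigenes of at least 5000 bases at the members' abundance. In each of these sets it rose with distance, to 1.23, 1.37 and 0.80 at 101 to 1000. The sources used here do not say how the running numbers were given out, or whether neighbours are pieces or isoforms of one gene. If each group counts as 1 through its most abundant member, 260 Unigenes are left, of which 24 were higher and 76 lower, with a median log2 fold of -0.31.

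Most members were read over nearly their whole length. The rule did not use the covered part of the length itself, but it asked for many reads. The median member had 853 reads at 30 days and 657 at 90 days, against 22 and 19 over all features compared. High coverage is therefore not independent of the rule. Reads covered a median of 99.4% of a member's length in the 30-day pool and 98.7% in the 90-day pool, and 267 and 238 members reached at least 95%. Unigenes shorter than 5000 bases at 20 to 50 CPM had medians of 98.5% and 96.9%. Of the 15 members that lost at least 10 points at 90 days 13 were at least 2-fold lower there, and so had fewer reads to cover them. The exceptions were a Unigene of 392 bases and one of 2049 bases, which went from 97.3% to 65.2% covered with 568 and 601 reads. In the opposite direction 2 members gained at least 10 points. One of them, of 1448 bases, went from 85.4% to 95.9% although its reads numbered 953 and 214.

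**Figure D4:**
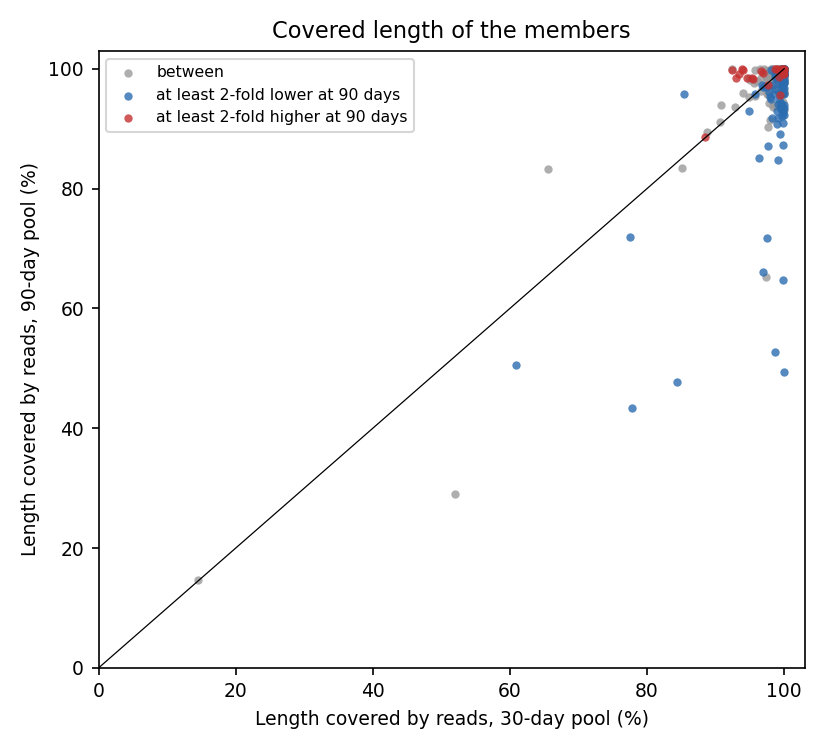
Percent of each member's length covered by reads in the 30-day pool (horizontal) and the 90-day pool (vertical), with 1 point per Unigene coloured by the 2-fold rule and a line of equal coverage. Most of the 292 points sit in the upper right corner, lower members trail downwards at 90 days, and a Unigene of 2283 bases lies at 14.5% and 14.6%.

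A few members were abundant over part of their sequence only. One of the 2 members of 2283 bases had 528 and 662 reads at the earlier and the later age, yet they covered 14.5% and 14.6% of it, or 332 and 333 bases. Counted over the covered bases alone its level was 169.6 RPKM at 30 days and 185.6 at 90 days, in place of 24.7 and 27.1. By library total its CPM did not differ between the ages beyond counting error (ratio 1.10, 0.978 to 1.23). A Unigene of 392 bases had 459 and 744 reads, with 204 bases covered at 30 days and 114 at 90 days. It had more reads over fewer bases in the 90-day pool. A Unigene of 3264 bases, 1 of the group of 5 described above, was covered to 60.8% and 50.6%. One of 4038 bases reached 77.6% and 71.9%, and one of 4607 bases, 21.0-fold higher at 30 days, reached 77.8% and 43.4%. For such members the RPKM over the whole length understates the level of the part that was read. The most abundant member also had bases without reads, whose positions are not known. Of its 4993 bases 2 had no read at 30 days and 187 had none at 90 days, in spite of 232743 reads there.

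At the edges of the rule, the member of lowest mean had 50.2 CPM (93.9 at 30 days and 6.63 at 90 days), and the next 2 had 50.4 each. Just outside lay Unigenes with 49.99, 49.9 and 49.7 CPM. By length the members closest to the limit had 4997, 4993 and 4990 bases, and the abundant Unigenes just beyond it had 5008, 5039 and 5074 bases. The 4993-base Unigene, which held the largest part of the members' reads, was thus within 7 bases of being left out. Those just outside the length limit had log2 folds of -0.21, -0.46 and 0.26.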

How the data were processed

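Each library came as a table of its own. The deposited columns, per the file headers, are the count of uniquely assigned reads of a feature, its length, the percent of its length covered and RPKM. The counts summed to each header's total, and the authors' RPKM equalled CPM per kilobase within a relative tolerance of 1e-06. The submitters' processing notes name TopHat, Cufflinks and the build Sscrofa10.2. The counting tool and the annotation are not stated.

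CPM used the header total (0.107 CPM a read at 30 days, 0.0934 at 90 days), and a feature missing from one table had 0 reads there. Folds carry a pseudocount of 1 CPM. Ratios have exact 95% intervals for counting error, and shares of reads have Clopper-Pearson intervals. TMM and median-of-ratios factors came from edgeR 4.0.16, the rest from Python 3.11.15 and scipy 1.17.1. Members, lists and limits were chosen with earlier results of these data known. The rule for names took the 2 extremes in each direction by identifier. By length it took the top 5 by CPM and by RPKM, the next 3 folds in each direction, the edges and the 5 least covered. The groups of neighbours described singly, the 407-base Unigene, the exceptions in covered length and the distance classes were chosen after their values were seen.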

Additional observations from a re-analysis of the deposited data

How the results depend on the processing

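No paired analysis was possible because there was a single library at each age, and none could be left out. Pseudocounts of 0.1 and 0.01 changed no count of members. Against 26 higher and 102 lower members, a 4-fold rule gave 4 and 58. Of the 292 members, 52 were higher after upper-quartile rescaling, 47 after TMM and 50 after median-of-ratios scaling. It was 64 when the 4 most abundant features were left out of the total. The same scalings called 22.8%, 21.3%, 21.9% and 30.5% of all features compared higher, in that order. The median log2 fold, -0.40 by library total, became -0.21 when the median of all features was centred at 0 and -0.022 after TMM. It turned positive after upper-quartile rescaling (0.052), after median-of-ratios scaling (0.0040) and on the total that omits the top 4 features (0.12). These shifts follow from the factors. A mean of at least 40 CPM gave 41 higher, 157 lower and 266 between of 464 Unigenes, and one of at least 100 CPM gave 7, 30 and 50 of 87. No upper limit of length left 297 of 473 between. A minimum of 5 CPM gave 2839 higher and 9152 lower over all features (14.5% and 46.8%), with fewer compared. On the total that omits the top 4 features the members held 12.4% of reads at 30 days and 15.8% at 90 days. Without the most abundant member they held 3.69% and 2.68%. Under a limit of 50% covered length fell 5 members at 90 days, against 2 under 30%. Numbers at most 1 apart gave 24 members in 11 groups, 10 of 1 sign, and numbers at most 20 apart 94 members in 37 groups. These limits, the set without its most abundant member and 1 member per group were chosen after seeing the data.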
